A study of Mus musculus with 477 samples.

Results

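BrT1 and BrT2 are 2 mammary tumors that arose in different mice of the same genotype, MMTV-Cre; Brca1 fl/fl, and 47 cells of BrT1 were set against 37 cells of BrT2, 84 of the 477 cells of the series. The members were all cells whose source label reads BrT1 (captured on the chip with the prefix SC1) or BrT2 (prefix SC4). In this model the mouse mammary tumor virus promoter drives Cre in mammary epithelium and removes the floxed Brca1 alleles. Trp53, which is floxed on 1 allele in other mice of the series, carried no floxed allele in either mouse. The mice were females of a mixed C57BL/6 and 129/Sv background, their ages are not given in the labels, and the tumors were removed at a diameter of about 1 cm. Both suspensions were depleted of blood and endothelial cells and sorted for live CD24+ cells, and each sorted cell was held in a chamber of a microfluidic C1 chip, where full-length cDNA was made from it. Luminal cells of 3 other mice carrying the same Brca1 deletion (1 virgin, vBrL, 35 cells; 2 at day 12.5 of pregnancy, pBrL-1 and pBrL-2, 71 and 38 cells; age 3 to 4 months) served as the reference. These luminal cells were sorted as live, CD24-high, CD29-low and positive for membrane GFP, which a ROSA mT/mG reporter allele gives in cells with active Cre. That gate was narrower than the gate of the tumors, so the luminal values also reflect it. Br53T1 (30 cells) and Br53T2 (51 cells), tumors with the same Brca1 deletion plus 1 floxed Trp53 allele (Trp53 fl/+), were used only to place values.

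There was 1 tumor and 1 chip on each side, so that mouse, tumor and chip cannot be told apart, and no p-value or standard error was made from cells. BrT1 held 90582620 reads and BrT2 49912752, and the median was 6170 and 5365 detected genes per cell. After every cell was thinned to 100000 reads the medians were 4436 and 3965 genes. The 10 most abundant genes took 6.72% of the reads in BrT1 and 14.01% in BrT2. No 2 cells held the same values. Values below are CPM, the reads of a gene summed over the cells of a tumor and scaled to a total of 1000000 reads, and 95% intervals (exact Poisson, exact conditional binomial for ratios, Clopper-Pearson for shares) cover counting error only, since reads without molecular identifiers are not independent molecules. A count of 0 allowed up to 3 reads, which is 0.0331 CPM in BrT1 and 0.0601 CPM in BrT2.

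Epithelial cells hold together through E-cadherin, claudins and desmosomes and carry a keratin skeleton. In epithelial to mesenchymal transition (EMT), transcription factors of the Zeb, Snai and Twist families repress these genes, the Zeb and Snai zinc finger proteins by binding the E-box CACCTG in promoters, while vimentin, fibronectin and matrix genes become active. Mammary tumors that lack Brca1 are thought to start mostly from luminal progenitor cells.

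Of 7600 genes tested, 996 (13.1%) were at least 4-fold higher in BrT1 and 637 (8.38%) at least 4-fold higher in BrT2, each with at least 10 CPM and a read in 25% of the thinned cells of the higher tumor. The other 5967 did not pass the fold. The median log2 ratio of BrT1 to BrT2 over the tested genes was 0.32, so that zero on this scale is not the middle of the genes. Centred on that median, 751 genes were higher in BrT1 and 790 in BrT2, and the share of calls that were higher in BrT1 went from 60.99% to 48.7%. Across the tested genes the rank correlation between the tumors was 0.51 (Spearman, across genes, which are not independent replicates). For 8 genes (0.105% of those tested) every BrT1 cell was above every BrT2 cell, and for 7 genes (0.0921%) every BrT2 cell was above every BrT1 cell. The first set was Brinp3, S100a6, Vcam1, Htra1, Dcn, Timp2, Lgals1 and Pcdh19. The second was Chil1, Lcn2, Sparcl1, Smim10l1, Fxyd3, Ppfibp2 and Cdh1, of which Fxyd3 and Ppfibp2 are named only for this and were chosen after their values were seen.

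The promoters of Epcam (an epithelial surface adhesion molecule) and Cldn4 (a tight junction claudin) are shown because both genes were far lower in BrT1 and both windows hold 2 copies of the E-box. They run from 250 bases before to 50 bases after the gene start (RefSeq, GRCm38.p6, 5′ to 3′ on the gene's strand), with CACCTG or its reverse complement CAGGTG in capitals. Epcam lies at chr17:87635729-87636028 on the plus strand and Cldn4 at chr5:134946885-134947184 on the minus strand.
Epcam: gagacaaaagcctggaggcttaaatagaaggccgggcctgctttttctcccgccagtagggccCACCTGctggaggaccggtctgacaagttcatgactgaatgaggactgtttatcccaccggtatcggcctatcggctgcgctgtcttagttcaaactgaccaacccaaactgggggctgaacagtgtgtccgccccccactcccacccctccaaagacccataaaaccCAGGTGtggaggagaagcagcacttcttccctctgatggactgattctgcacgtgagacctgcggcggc
Cldn4: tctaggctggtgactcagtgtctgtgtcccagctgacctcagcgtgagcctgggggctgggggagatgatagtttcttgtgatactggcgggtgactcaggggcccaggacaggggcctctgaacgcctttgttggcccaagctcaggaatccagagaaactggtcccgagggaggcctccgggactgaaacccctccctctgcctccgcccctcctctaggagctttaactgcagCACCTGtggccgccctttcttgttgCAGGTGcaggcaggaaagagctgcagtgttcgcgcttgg
Of the 28 genes of the epithelial junction and identity list, 16 had an entry in the promoter table and 13 of these (81.2%) held the motif, which was searched on both strands. Over all 27025 genes with an entry the share was 22.6%, at a mean GC content of 53.6%. Among tested genes that did not pass the fold it was 18.3% (877 of 4787), at a GC content of 61.9%, the same as that of the list. Among the genes 4-fold higher in BrT2 the share was 27.8% (133 of 479), and among those higher in BrT1 15.1% (117 of 776). A match is a run of letters and not a bound site.

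Epithelial adhesion genes were low or absent in BrT1. Of the 28 listed genes, 18 were tested, 12 were at least 4-fold higher in BrT2 and 0 in BrT1, with a median log2 ratio of -5.22 beside 0.32 for all tested genes and -3.43 over all 28 members. Medians given for a list are over its tested members, which passed a filter set by the higher tumor. Counts given for a list stand beside the 13.1% and 8.38% of all tested genes that were higher in BrT1 and BrT2. Cdh1 (E-cadherin, the adherens junction cadherin, chr8:106603351-106670246) had 0 reads in all 47 BrT1 cells, while in BrT2 it stood at 244 CPM and ranged over cells from 0.647 through a median of 115 to 1560 CPM. That makes it at least 7377-fold higher in BrT2. Epcam (chr17:87635979-87651129) was at 19.2 CPM in BrT1, with a median of 0 and a highest cell of 940 CPM, against 856 CPM in BrT2, with a median of 772 CPM and a highest cell of 3189 CPM. It was thus 44.7-fold higher in BrT2 (95% interval 42.6 to 46.9), although 7 of 47 BrT1 cells still held a read after thinning. The size of this ratio depended on the processing, with log2 ratios from -8.45 to -4.72 over the alternatives. Cldn4 gave 1 read in BrT1 and 116 CPM in BrT2. Cldn7, a further claudin, was at 2.20 CPM in BrT1 and 60.02 CPM in BrT2.

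Other members of the list were also lower in BrT1. Elf3 and Grhl2, epithelial transcription factors, were at 0.0442 and 0.905 CPM in BrT1 against 274 and 16.4 CPM in BrT2. Esrp1, which directs epithelial splicing, gave 1 read in BrT1 and 90.5 CPM in BrT2. Rab25 and Ap1m2, which sort membrane proteins in polarised cells, had 0 reads in BrT1 and 89.8 and 104 CPM in BrT2. Not every member differed in this way. Cldn3 was at 121 CPM in BrT1 and 270 CPM in BrT2, and Jup (plakoglobin) at 72.2 and 196 CPM. Cd24a, which encodes the antigen used for sorting, was at 335 and 621 CPM and was read in 45 of 47 and 33 of 37 thinned cells.

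Of 4 luminal keratins 3 were tested, and all 3 were at least 4-fold lower in BrT1, where Krt8 and Krt18 were still read in most cells. Krt8 (keratin 8, chr15:101996698-102004482) stood at 178 CPM in BrT1 (median over cells 171 CPM, highest 789) and at 930 CPM in BrT2 (median 535 CPM, highest 6262), 5.24-fold higher in BrT2 (5.15 to 5.34). Its partner Krt18 (chr15:102028180-102032027) stood at 315 and 1993 CPM, 6.32-fold higher in BrT2 (6.24 to 6.41). Cells of the 2 tumors overlapped for both genes. Krt7 was at 0.155 CPM in BrT1 and 115 CPM in BrT2, and Krt19, which did not pass the filter, had 0 reads in BrT1 and 25.2 CPM in BrT2. After thinning, Krt8 or Krt18 was read in 45 of 47 BrT1 cells (95.7%, interval 85.5 to 99.5) and in 35 of 37 BrT2 cells (94.6%, 81.8 to 99.3). Of 10 basal keratins and regulators 3 were tested and 2 were higher in BrT1, Krt14 and Krt16, keratins of basal and stressed epithelium, at 23.9 and 17.1 CPM with 0 reads in BrT2. The sum of that list was lower in BrT1 (75.1 and 99.6 CPM), so the list had no common direction.

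**Figure D1:**
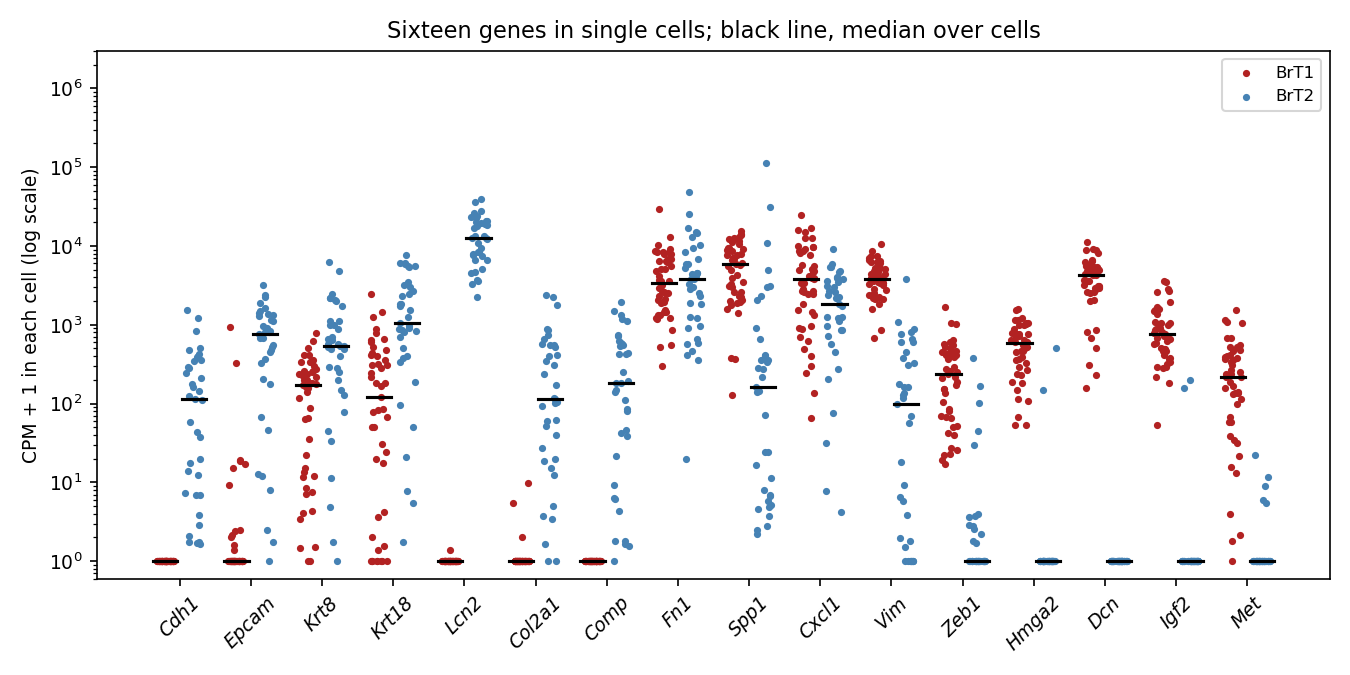
CPM plus 1 (log scale) of 16 genes in each of the 47 BrT1 cells (red) and 37 BrT2 cells (blue), with the median over cells as a black line. Cdh1 sat at 0 CPM in every BrT1 cell and Dcn at 0 CPM in every BrT2 cell, while the ranges of Fn1 overlapped.

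EMT transcription factors were higher in BrT1. Of 12 listed genes 7 were tested, 5 were at least 4-fold higher in BrT1 and 0 in BrT2, with a median log2 ratio of 3.70 (2.77 over all members). Zeb1 was at 291 CPM in BrT1, where cells ran from 16.2 through 233 to 1687 CPM, and at 21.5 CPM in BrT2, where the median cell was at 0 and the highest at 374 CPM. The ratio was 13.5 (12.7 to 14.4), and after thinning Zeb1 was read in 47 of 47 BrT1 cells and 6 of 37 BrT2 cells. Without thinning, 14 of 37 BrT2 cells held a read of Zeb1. Zeb2 was at 101 against 3.45 CPM and Twist1 at 49.7 against 8.88 CPM. Prrx1, a mesenchymal homeobox factor, was at 107 against 0.281 CPM. Hmga2, a chromatin protein of embryonic and mesenchymal tumors, was read in all 47 BrT1 cells (51.7 to 1594 CPM) and stood at 590 against 21.9 CPM. Snai1 did not pass the fold (20.9 and 25.6 CPM). In the 3 luminal mice Zeb1 reached at most 0.0866 CPM, and Zeb2 and Twist1 had 0 reads.

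Mesenchymal effectors split into those set apart and those shared. Of 20 genes 18 were tested, 12 were at least 4-fold higher in BrT1 and 0 in BrT2, with a median log2 ratio of 3.50. Vim (vimentin, chr2:13573927-13582826) was at 4080 CPM in BrT1 (676, 3756 and 10706 CPM in the lowest, median and highest cell) and 306 CPM in BrT2 (0, 98.5 and 3786 CPM), a ratio of 13.3 (13.1 to 13.5). Cd44, a hyaluronan receptor, was at 3398 against 245 CPM, and Lgals1 (galectin-1) at 1673 against 73.9 CPM. S100a4 was at 196 against 1.04 CPM and Itga5, a subunit of the fibronectin receptor, at 79.4 against 0.12 CPM.

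Fn1 (fibronectin, chr1:71585520-71653200) was high in both tumors. It stood at 4926 CPM in BrT1 (299 to 29127 CPM over cells, median 3419) and at 6200 CPM in BrT2 (18.97 to 48504 CPM, median 3773), against at most 11.8 CPM in the luminal mice. The ratio of 1.26 in favour of BrT2 (1.25 to 1.26, counting error only) was far smaller than the spread over cells. Sparc, a collagen-binding matrix protein, was at 855 and 386 CPM, and Mmp2, a gelatinase, at 178 and 169 CPM. Mrc2, a collagen uptake receptor, was at 17.8 and 11.8 CPM. Spp1 (osteopontin) summed to 6417 and 5715 CPM, but the median cell was at 5892 CPM in BrT1 and 162 CPM in BrT2, where 1 cell reached 113580 CPM.

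**Figure D2:**
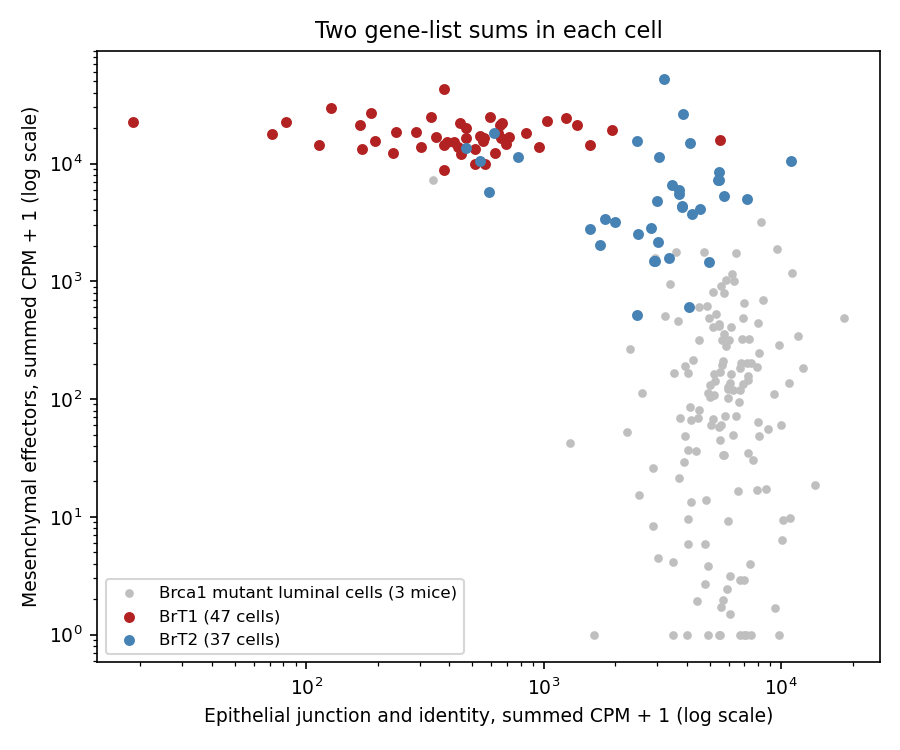
Each point is 1 cell, placed by the summed CPM plus 1 of 28 epithelial junction and identity genes (x axis) and of 20 mesenchymal effectors (y axis), both on log scales, with BrT1 red, BrT2 blue and Brca1 mutant luminal cells of 3 mice grey. The median BrT2 cell (3214 and 4980 CPM) lay between the median BrT1 cell (467 and 16896 CPM) and the luminal medians (5205 to 6204 and 69.2 to 161 CPM) on both axes, and 5 BrT2 cells lay below 1000 CPM on the x axis.

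Single cells carried both kinds of transcript. After thinning, Fn1 was read in all 47 BrT1 and all 37 BrT2 cells, and Vim and Zeb1 in all 47 BrT1 cells. Where such a gene was read in every cell, a joint count only repeats how many cells held the epithelial gene. In BrT2, Fn1 was read together with Krt18 in 34 of 37 thinned cells (91.9%, interval 78.1 to 98.3), together with Epcam in 33 and together with Cdh1 in 27. In BrT1, Fn1 was read together with Krt18 in 33 of 47 cells (70.2%, 55.1 to 82.7), with Epcam in 7 and with Cdh1 in 0. Zeb1, Vim and Krt8 or Krt18 were read in the same cell in 45 of 47 BrT1 cells and 3 of 37 BrT2 cells. These counts depended on thinning. Zeb1 was read with Krt18 in 4 of 37 BrT2 cells after thinning and in 14 without it. Without thinning, Fn1 was read with Epcam in 13 of 47 BrT1 cells. Summed per cell, the epithelial list ran from 17.6 through 467 to 5539 CPM in BrT1 and from 469 through 3214 to 11023 CPM in BrT2. The median luminal cell was at 5205 to 6204 CPM in the 3 mice. The mesenchymal list ran from 8895 through 16896 to 42730 CPM in BrT1 and from 517 through 4980 to 52690 CPM in BrT2, while the median luminal cell was at 69.2 to 161 CPM. Within a tumor the rank correlation of the 2 sums was -0.03 over 47 BrT1 cells and 0.02 over 37 BrT2 cells (Spearman, a description over cells that share 1 chip). For the luminal keratin sum against the mesenchymal sum it was -0.37 in BrT1 and -0.04 in BrT2.

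BrT2 was not uniform. An epithelial sum below 1000 CPM, a limit set after the values were seen, held for 5 of 37 BrT2 cells, 41 of 47 BrT1 cells and 1 of 144 luminal cells. The 5 BrT2 cells were at 469, 540, 585, 616 and 775 CPM, and the next cell was at 1561 CPM. Their mesenchymal sums were 13668, 10517, 5688, 18152 and 11332 CPM in the same order. Lcn2 was at 9392, 22979, 10935, 12586 and 3690 CPM in them, and Dcn was at 0 in all of them. Both are genes for which no cells of the tumors overlapped, so that these levels had to lie outside the BrT1 range. Zeb1 was at 374 and 166 CPM in 2 of them and at 2.59 CPM or lower in the other 3. Of the 6 BrT2 cells with Zeb1 after thinning, 4 also held a read of Krt8 or Krt18. One BrT1 cell stood apart in the other direction with an epithelial sum of 5539 CPM, of which Cd24a gave 4161 CPM.

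Both tumors made matrix, of different composition. Of 18 collagen genes 14 were tested, with a median log2 ratio of 0.89. At least 4-fold higher were 5 in BrT1 and 3 in BrT2, beside 13.1% and 8.38% of all tested genes. Those higher in BrT1 were chains of fibrillar and microfibrillar collagens of connective tissue and Col18a1 of basement membrane. Col1a2 (chr6:4504814-4541544) was at 466 CPM in BrT1 and 0.12 CPM in BrT2, Col5a1 at 98.7 CPM and 1 read, Col6a1 at 1271 and 27.5, Col6a2 at 472 and 6.51, and Col18a1 at 734 and 28.1 CPM. The 3 that were higher in BrT2 are chains of cartilage fibrils. Col2a1 (chr15:97975602-98004695) was at 0.331 CPM in BrT1 and 384 CPM in BrT2, where cells ran from 0 through 115 to 2369 CPM and 30 of 37 held a read after thinning. Col9a1 had 0 reads in BrT1 and 445 CPM in BrT2, and Col11a1 stood at 3.00 and 578 CPM. Col4a1 and Col4a2 of basement membrane did not pass the fold, at 116 and 207 CPM and at 168 and 128 CPM.

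A list of 21 genes of cartilage matrix and its regulators was written after these values had been seen, and its counts are a description. Of 10 tested members 7 were at least 4-fold higher in BrT2 and 1 in BrT1, beside 8.38% and 13.1% of all tested genes. Comp, a cartilage matrix protein, had 0 reads in BrT1 and 377 CPM in BrT2 (median cell 180 CPM, highest 1958). Mia, secreted by chondrocytes and melanoma cells, had 0 reads against 85.2 CPM, and Col9a2 and Col9a3 were at 0.386 against 164 CPM and 0 against 45.1 CPM. Sox9, the factor that drives cartilage genes, went the other way. It was read in all 47 BrT1 cells at 1750 CPM against 254 CPM in BrT2, 6.89-fold higher in BrT1 (6.77 to 7.02). Acan (aggrecan) did not pass the fold. Col2a1 shared a cell with Krt8 in 28 of 37 BrT2 cells and with Lcn2 in 30. Luminal mice were at 0.0289 CPM of Col2a1 or lower and had 0 reads of Comp.

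Among the other matrix proteins, Dcn (decorin, a collagen-binding proteoglycan, chr10:97479609-97518143) was the most extreme gene in BrT1. It was read in all 47 cells, from 155 through 4301 to 11291 CPM, and had 0 reads in BrT2, so that it was at least 72477-fold higher in BrT1. The luminal mice reached 712 CPM of Dcn. Thbs1 (thrombospondin-1) was at 53.2 CPM in BrT1 and 3819 CPM in BrT2, and Mgp, an inhibitor of calcification, at 35.1 and 985 CPM. Fbln2 did not pass the fold, at 480 and 445 CPM against at most 3.13 CPM in luminal cells. The crosslinking enzymes Loxl1 and Loxl2 were at 188 and 42.3 CPM in BrT1 with 0 reads in BrT2, and Loxl3 was at 105 and 80.1 CPM. The collagen lysyl hydroxylase Plod1 was higher in BrT2 (40.4 and 255 CPM), and so was the collagen chaperone Serpinh1 (5.88-fold).

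Several genes in which BrT1 was high are used as markers of fibroblasts. Of the 15 fibroblast markers 5 were tested and 4 were higher in BrT1 (Dcn, Col1a2, Pdgfra and Pdgfrb), with sums of 5189 CPM in BrT1 and 85.3 CPM in BrT2. Summed over the list, cells ran from 676 through 4898 to 12973 CPM in BrT1. Other members of the list were low, and Thy1 and Lum had 0 reads in BrT1, Fap had 1 read, Col3a1 at 7.55 CPM and Col1a1 at 20.4 CPM with a read in 7 of 47 thinned cells. Sums of endothelial markers were 31.9 and 74.3 CPM, of immune cell markers 4.76 and 0.22 CPM, and of red cell markers 1.38 and 0 CPM. The part of other cell types in the BrT1 values was not tested beyond these levels.

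**Figure D3:**
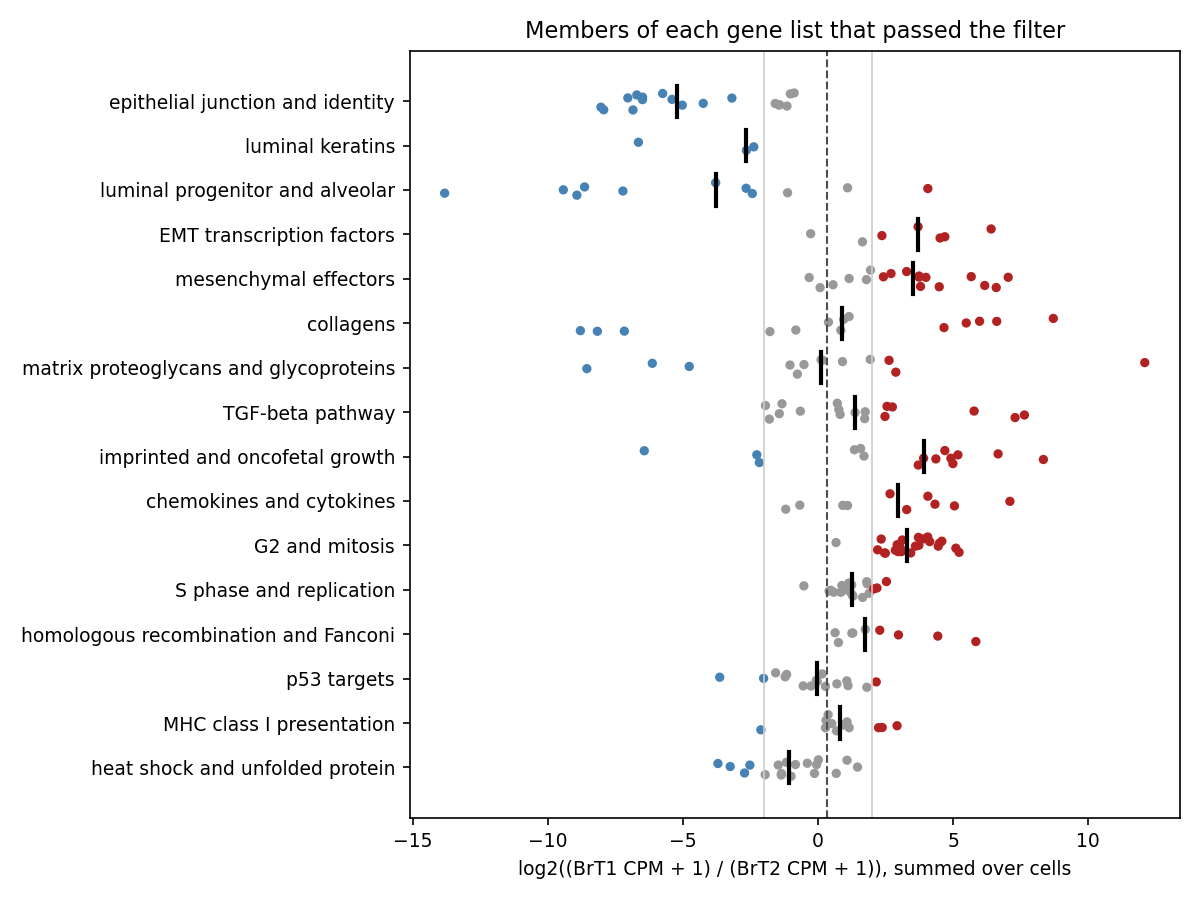
Each point is 1 tested gene, placed by log2 of the ratio of BrT1 to BrT2 (CPM plus 1) for 16 gene lists, red where at least 4-fold higher in BrT1, blue where at least 4-fold higher in BrT2 and grey otherwise. Black bars are list medians, the dashed line is the median of all tested genes (0.32) and the thin grey lines mark 4-fold, and G2 and mitosis genes lie to the right while epithelial lists lie to the left.

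Most tested genes of the luminal progenitor and alveolar lineage were higher in BrT2 than in BrT1. The list summed to 6076 CPM in BrT1 and 23731 CPM in BrT2, both below the 52634 to 150035 CPM of the luminal mice. Lcn2 made up most of the BrT2 sum, and Cxcl1, a member described below, was higher in BrT1. Of 19 genes 11 were tested, 8 were at least 4-fold higher in BrT2 and 1 in BrT1, with a median log2 ratio of -3.80 (-2.67 over all members). Lcn2 (lipocalin-2, an iron carrier, chr2:32384633-32388252) was the most extreme, with 14692 CPM in BrT2 (2232, 12626 and 39135 CPM in the lowest, median and highest cell) and 1 read in BrT1, a ratio of 1.33e+06 (2.39e+05 to 5.26e+07). The luminal mice held 1717 to 2374 CPM of Lcn2, so BrT2 was above and BrT1 below them. Kit, the receptor of stem cell factor, was at 0.188 and 177 CPM, and Ehf, an epithelial Ets factor, had 0 reads against 400 CPM. Sox10 stood at 27.1 and 151 CPM, with the highest BrT1 cell at 1585 CPM and the median at 0. Csn3 (kappa casein) was at 4.39 and 3731 CPM and Wfdc18, a whey acidic protein family member, at 1.62 and 1280 CPM. Wfdc18 was lower in both tumors than in luminal mice (at least 11602 CPM). Chil1, a secreted chitinase-like protein, had 0 reads in BrT1 and 4292 CPM in BrT2, and Trf (transferrin) was at 3.49 and 4304 CPM.

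Growth genes that are imprinted or active before birth differed in both directions. Of 24 genes 15 were tested, 9 were at least 4-fold higher in BrT1 and 3 in BrT2, with a median log2 ratio of 3.90 over the tested and 1.46 over all members. Igf2 (insulin-like growth factor 2, chr7:142650766-142666816) was read in all 47 BrT1 cells, from 52.7 through 764 to 3570 CPM, and stood at 992 CPM against 8.82 CPM in BrT2, where 2 of 37 cells held a read. Its neighbour H19 was at 322 CPM in BrT1 with 0 reads in BrT2. In the luminal mice Igf2 reached 0.208 CPM and H19 had 0 reads. Igf2bp2, an RNA-binding partner of Igf2 mRNA, was at 96.2 and 2.06 CPM, and Igfbp4 at 996 and 32.1 CPM. Igf2r, which clears IGF2, was higher in BrT2 (114 and 518 CPM), as was Igfbp5 (3.12 and 356 CPM).

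Of 28 oncogenes and receptors 22 were tested, 6 were higher in BrT1 and 2 in BrT2, with a median log2 ratio of 1.04. Over all tested genes the shares were 13.1% and 8.38%, so the count higher in BrT2 was near the background. Met, the receptor of hepatocyte growth factor, was at 302 CPM in BrT1 (median cell 217 CPM) and 1.40 CPM in BrT2, a ratio of 215 (170 to 276), and its ligand Hgf was at 55.3 CPM in BrT1 with 0 reads in BrT2. Pdgfra was at 105 CPM against 1 read, and Pdgfrb was 17.3-fold higher in BrT1. Erbb3, the neuregulin receptor, was at 0.155 CPM in BrT1 and 241 CPM in BrT2, a ratio of 1557 in favour of BrT2 (928 to 2849). Fgfr1 did not pass the fold and was high in both, at 392 and 1034 CPM. Among TGF-beta pathway genes 6 of 17 tested were higher in BrT1 and 0 in BrT2 (median log2 ratio 1.37, and 0.79 over all members). The list sums were close, at 4739 and 4248 CPM. Among the 6 were Inhba, an activin subunit, at 321 against 4.89 CPM and Ltbp2 at 156 CPM against 0 reads. The induced gene Tgfbi was at 198 CPM against 0 reads.

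Several chemokine genes were higher in BrT1, and Cxcl1 was abundant in both tumors. Of 24 chemokine and cytokine genes 10 were tested, 6 were at least 4-fold higher in BrT1 and 0 in BrT2, with a median log2 ratio of 2.97 over the tested and 1.00 over all members. Ccl2, which attracts monocytes, was at 4128 CPM in BrT1 (20.1, 2386 and 42458 CPM in the lowest, median and highest cell) and 124 CPM in BrT2, where the median was 0. Ccl7 was at 136 CPM against 0 reads, and Csf1, a macrophage growth factor, at 180 against 8.01 CPM. Cxcl1, a neutrophil attractant, was at 5089 and 2392 CPM, while luminal mice reached 107 CPM. Of 12 tested genes of MHC class I presentation 3 were higher in BrT1 and 1 in BrT2 (median log2 ratio 0.80), where 13.1% and 8.38% of all tested genes were, so that the count higher in BrT2 was near the background. H2-K1, a class I heavy chain with close paralogs, was at 463 and 384 CPM. The sum of that list was 5607 and 3691 CPM in the tumors and 9233 to 12594 CPM in the luminal mice.

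Genes of G2 and mitosis were higher in BrT1 nearly without exception. All 24 were tested and 23 were at least 4-fold higher in BrT1, with a median log2 ratio of 3.28 and sums of 4880 and 412 CPM. The remaining gene, Kif20a, was at 56.7 and 35.5 CPM. Top2a, a topoisomerase of dividing cells, was at 1109 CPM in BrT1 (2.33, 620 and 5006 CPM in the lowest, median and highest cell) and 31.4 CPM in BrT2 (median 0.649, highest 695), a ratio of 35.3 (33.6 to 37.1). Cdk1, the mitotic kinase, was at 433 and 25.1 CPM. After thinning, 30 of 47 BrT1 cells (63.8%, interval 48.5 to 77.3) and 5 of 37 BrT2 cells (13.5%, 4.54 to 28.8) held a read of at least 5 of the 24 genes. Without thinning the shares were 97.9% and 54.1%. In the luminal mice the thinned share was 25.7% in vBrL, 22.5% in pBrL-1 and 52.6% in pBrL-2.

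BrT1 cells spread over the whole range of these genes. At least 18 of the 24 genes were read in 20 cells, at most 4 in 17 cells, and 10 cells lay between, while in BrT2 the same numbers were 1, 32 and 4 cells. Over the 47 BrT1 cells the number of G2 and mitosis genes went with the number of S phase genes (Spearman 0.75) and weakly with the number of detected genes (0.37). Of 19 tested S phase and replication genes 3 were higher in BrT1, a share near the 13.1% of all tested genes, and 0 in BrT2, with a median log2 ratio of 1.24. Ccnd2 (cyclin D2) was at 172 and 2.65 CPM, Cdk4 at 470 and 94.9 CPM, and Cdkn1b, the CDK inhibitor p27, at 4.81 and 58.2 CPM.

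**Figure D4:**
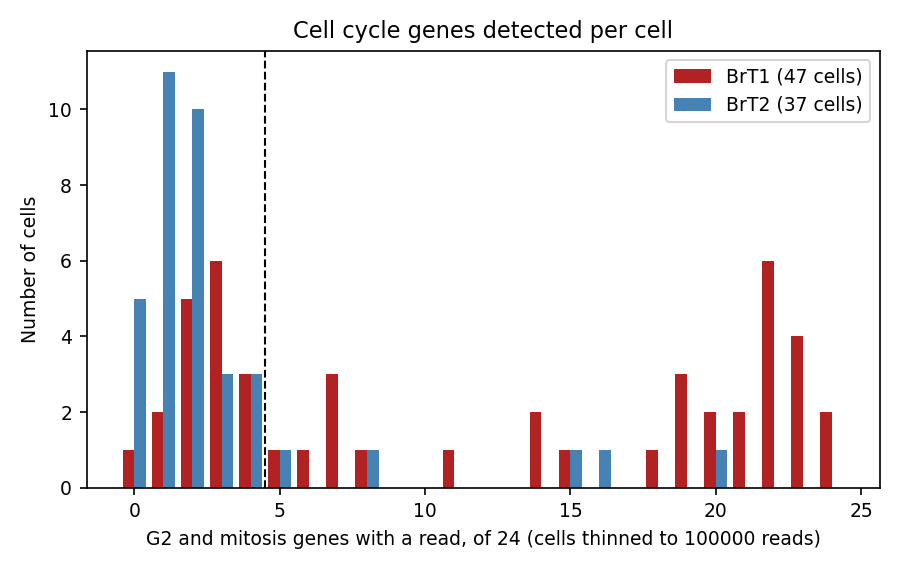
Number of cells (y axis) by how many of 24 G2 and mitosis genes had a read in the cell after thinning to 100000 reads (x axis), for BrT1 (red, 47 cells) and BrT2 (blue, 37 cells), with a dashed line before 5 genes. BrT1 shows cells at both ends of the range, and 32 of 37 BrT2 cells lie at 4 genes or fewer.

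DNA repair and p53 genes were examined because both mice carry the Brca1 deletion. Brca1 itself was at 57.2 CPM in BrT1 (17 of 47 cells) and 1.70 CPM in BrT2 (3 of 37 cells), with 2.03 to 31.8 CPM in the luminal mice. The counts are per gene and the deleted part is not resolved, so reads do not check the deletion. Of 28 homologous recombination and Fanconi genes 9 were tested and 4 were higher in BrT1, among them Brca1, Brip1 and Fancc, with a median log2 ratio of 1.74. Brip1, a helicase that binds BRCA1, was at 66.5 and 0.18 CPM. G2 and mitosis genes were also higher in BrT1, and the part of cell cycle in the repair gene values was not tested. Trp53 was at 5.05 CPM in BrT1 (5 of 47 cells) and 49.8 CPM in BrT2 (15 of 37 cells), with at least 92.5 CPM in the luminal mice. Of 28 p53 targets 16 were tested, 1 was higher in BrT1 and 2 in BrT2, with a median log2 ratio of -0.05 (0.28 over all members). These counts were near the 13.1% and 8.38% of all tested genes, while the list sum was higher in BrT2 (1644 and 2903 CPM). Cdkn1a, the p53-induced CDK inhibitor p21, was at 94.5 and 85.1 CPM.

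Of 18 heat shock and unfolded protein genes, all tested, 4 were higher in BrT2 and 0 in BrT1 (median log2 ratio -1.09), beside 8.38% and 13.1% of all tested genes, and Hsph1, a heat shock chaperone, was at 157 and 908 CPM. Hspa1a (36.4 and 357 CPM) and Hspa1b (82.3 and 550 CPM) are near-identical copies, and how reads were shared between them is not stated. Glycolysis and hypoxia genes gave 3 of 22 higher in BrT2, near the background of 8.38%, and 0 in BrT1 (median log2 ratio -0.25). Of 10 drug efflux genes 4 were tested, of which 1 was higher in BrT1 (Abcb1b, 22.9 and 1.92 CPM), 1 in BrT2 (Abcg2, 10.7 and 204 CPM) and 2 in neither, too few to set against the background.

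Each tumor was then placed against the luminal mice. Of all 7600 tested genes both tumors lay within 4-fold of the luminal range for 6354 (83.6%), BrT1 lay above it for 630 and below for 266, and BrT2 above for 421 and below for 174. Since the genes below were chosen as higher in 1 tumor, the side on which each tumor lay is partly fixed by that choice. Of the 996 genes higher in BrT1, BrT1 lay 4-fold above the highest luminal mouse and BrT2 within 4-fold of the range for 298, BrT2 lay below and BrT1 within for 117, both lay above for 39, both within for 534, and BrT1 above and BrT2 below for 6. Of the 637 genes higher in BrT2, BrT1 lay below and BrT2 within for 194, BrT2 lay above and BrT1 within for 149, both within for 267, and BrT1 below and BrT2 above for 10. Vcam1, an adhesion receptor, was at 1006 CPM in BrT1 and 0 reads in BrT2, on either side of the 34.8 to 127 CPM of luminal mice. Pcdh19, a protocadherin, was at 634 CPM in BrT1 with 0 reads in BrT2 and in the luminal mice. Angptl4 and Esm1, secreted proteins of vessels and metabolism, were at 451.5 and 230 CPM in BrT1 with 0 reads in BrT2, and the protease gene Htra1 at 944.5 CPM with 0 reads. Timp2, a metalloproteinase inhibitor, was at 1151 CPM in BrT1 and 0.881 CPM in BrT2, a ratio of 1306 (973 to 1798). Fosl1, an AP-1 subunit, was 343-fold higher in BrT1 (269 to 446). In BrT2, Sparcl1, a matrix glycoprotein, ran from 91.5 through 1400 to 11156 CPM over cells, and stood at 2546 CPM against 3.10 CPM in BrT1. Gpx2, a glutathione peroxidase, was at 596 CPM in BrT2 with 2 reads in BrT1, and Chl1, a neural adhesion molecule, at 345 CPM with 0 reads.

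Of all 7600 tested genes, 204 (2.68%) were 4-fold above the luminal range in both tumors. Chosen after the values were seen, the examples with the highest level in both are Fn1, Cxcl1, Tm4sf1 (a tetraspan surface protein, 1946 and 2859 CPM against at most 226) and Cpe (carboxypeptidase E, 1295 and 1514 CPM against at most 2.93). A further 25 genes (0.329%) were below the range in both, among them Gata3, the luminal transcription factor, at 64.4 and 17.8 CPM against at least 313 CPM.

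Xist, the RNA that coats the inactive X chromosome of female cells (chrX:103460366-103483254), had 0 reads in the 47 BrT1 cells. In BrT2 it was at 606 CPM (0, 460 and 2428 CPM in the lowest, median and highest cell) and read in 34 of 37 thinned cells. Luminal mice held 375 to 524 CPM and Br53T1 and Br53T2 693 and 640 CPM, so that BrT1 alone of these 7 mice lacked it. Over 279 other X-linked genes the mean log2 difference between the tumors was -0.11 after centring on the autosomes. Copies of the X chromosome were not measured.

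Mean levels also differed by chromosome. For each chromosome the mean log2 difference of BrT1 minus BrT2 was taken over genes with at least 10 CPM in the mean of the 11 mice and centred on all autosomes. It was highest for chromosomes 13 (0.83, 314 genes), 10 (0.53, 416 genes) and 11 (0.38, 713 genes) and lowest for chromosomes 16 (-0.78, 299 genes), 7 (-0.61, 579 genes) and 6 (-0.60, 446 genes). Relative to the luminal mice, chromosome 13 was at 0.25 in BrT1 and -0.58 in BrT2, chromosome 16 at -0.55 and 0.23, and chromosome 7 at -0.63 and -0.01. Chromosome 4 was below the luminal mean in both (-0.30 and -0.60).

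Cells of the tumors overlapped on every chromosome, to different extents. On chromosome 16 all 47 BrT1 cells lay below the luminal mean and below the median BrT2 cell, and 46 lay below the lowest BrT2 cell. On chromosome 13 all 37 BrT2 cells lay below the luminal mean, and 35 lay below the lowest BrT1 cell. On chromosome 10 all 37 BrT2 cells lay below the luminal mean and 32 below the lowest BrT1 cell. On chromosome 6, 32 of 47 BrT1 cells lay below the lowest BrT2 cell, and on chromosome 11, 17 of 37 BrT2 cells lay below the lowest BrT1 cell. On chromosome 7 all 47 BrT1 cells lay below the luminal mean, and 12 of them below the lowest BrT2 cell. Single luminal cells spread widely, from -0.96 to 0.40 on chromosome 10, -0.49 to 0.53 on chromosome 16 and -0.40 to 0.73 on chromosome 6. These ranges held all BrT2 cells on chromosome 10, all BrT1 cells on chromosome 6 and the median BrT1 cell (-0.44) on chromosome 16. On chromosomes 13 (-0.33 to 0.40) and 7 (-0.41 to 0.29) the median BrT2 cell (-0.63) and the median BrT1 cell (-0.63) lay below them. Expression means of this kind are not copy numbers, and the chip and mouse cannot be told apart from the tumor.

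**Figure D5:**
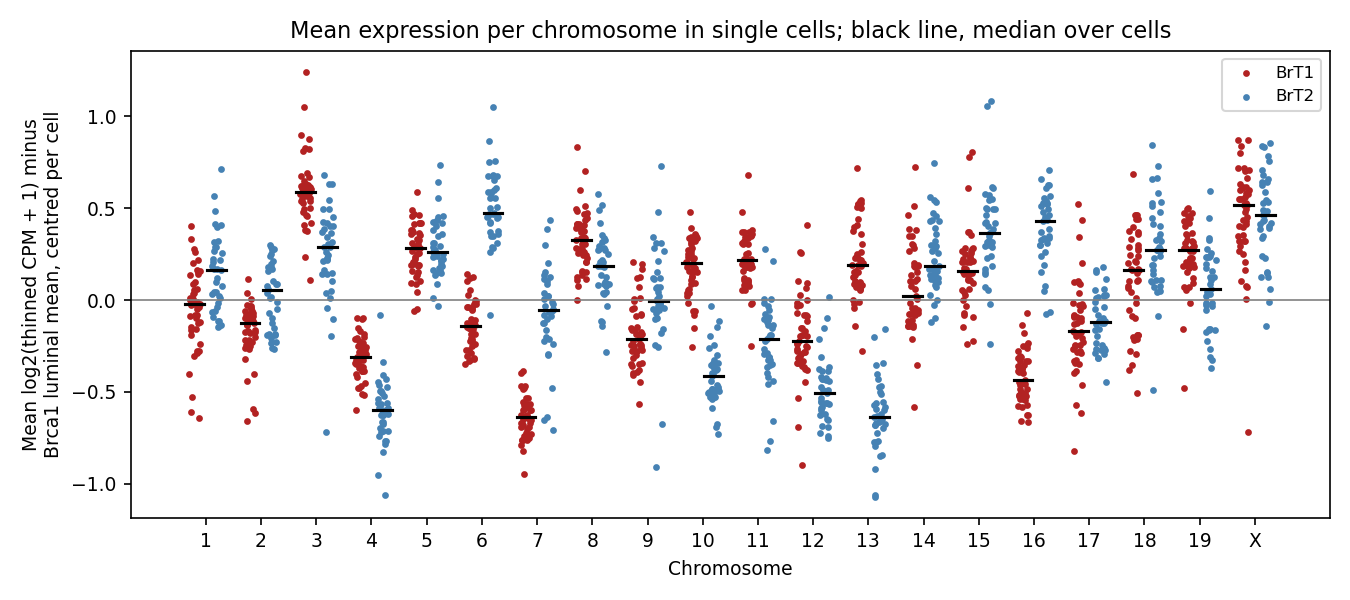
Mean log2(thinned CPM plus 1) per chromosome in each cell, minus the mean over Brca1 mutant luminal cells and centred per cell on all autosomes (y axis), by chromosome (x axis), for BrT1 (red) and BrT2 (blue) with the median over cells as a black line. On chromosome 16, 46 of 47 BrT1 cells lie below every BrT2 cell, on chromosome 13, 35 of 37 BrT2 cells lie below every BrT1 cell, and on every chromosome the ranges of the tumors overlap.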

How the data were processed

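Full-length cDNA of C1-captured cells was sequenced. Reads were quality-trimmed with sickle and Trim Galore 0.4.1, aligned to mm10 with STAR 2.5.3a and counted with Subread 1.5.3 by the authors (submitters' processing notes and methods). The deposited table gives unnormalized counts, 1 row a gene and 1 column a cell (21004 genes, 477 cells). The annotation, strand setting and any filter are not given in the sources used here. Doublets were inspected under a microscope by the authors and not called again.

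Each GEO sample is 1 cell, and the mouse is the replicate. Counts were summed per tumor and scaled to CPM. The ratio is log2((CPM + 1)/(CPM + 1)). A gene was tested with at least 10 CPM and a read in 25% of cells of either tumor, after thinning each cell to 100000 reads (0 cells were too shallow), and called at 4-fold. Of the symbols, 20885 (99.4%) matched GENCODE vM21 (GRCm38), which gave positions. Gene names follow this rule: the 12 largest log2 ratios in each direction among called genes read in at least 75% of cells of the higher and at most 25% of the lower tumor (gene models left out), and members of 44 lists. The members and lists were chosen with earlier results of these data known, and genes named outside the rule are said to be. Python 3.11.15, pandas 2.3.3, scipy 1.17.1 and edgeR 4.0.16 (TMM and RLE factors) were used, and the calling step was tested on simulated counts. Alternatives are given in the closing section. One gene is not reported here.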

Additional observations from a re-analysis of the deposited data

Results flagged for a closer look

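Over the 4 tumors, 44 list sums were searched for 1 tumor standing apart, by the gap to its nearest neighbour as a share of the whole range on the log2 scale. Chance gives this in about 1 in 20 groups of 4, so about 2.2 of 44, and 3 were found. The EMT transcription factors summed to 1316 CPM in BrT1 and lay above the other tumors (gap 0.919 of the range), which held 125 CPM in BrT2, 151 CPM in Br53T1 and 143 CPM in Br53T2. The matrix proteoglycans and glycoproteins were low in Br53T2 at 2182 CPM, and adipocyte markers were high in Br53T2 at 10.0 CPM.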

How the results depend on the processing

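Within 1.5 times of the main counts (996 higher in BrT1, 637 higher in BrT2) were TMM factors, RLE size factors, the mean and 10% trimmed mean over cells, thinning, a pseudocount of 0.1 CPM, cells with at least 4000 detected genes (47 and 35) and, added after seeing the data, centring. A pseudocount of 10 CPM gave 508 and 404 genes, no filter on low values 1912 and 1505, an 8-fold limit 466 and 356, and a 2-fold limit 2323 and 1358. TMM and RLE moved the median log2 ratio of the tested genes from 0.32 to 0.14 and 0.11. Among the list sums and genes recomputed, none past 4-fold changed sign under these alternatives. Sizes moved: over genes and settings, 244 ratios left the main 95% counting interval and 28 did not. For list sums the numbers were 49 and 15. The log2 ratio ran from -8.45 to -4.72 for Epcam, 3.26 to 6.09 for Zeb1 and 3.15 to 5.83 for the G2 and mitosis sum. Trp53 fell short of 4-fold at a pseudocount of 10 CPM (log2 ratio -1.99). Without thinning or at 5 reads, 9 co-detection shares left their interval and 11 did not. The filter does not enter list sums, so that alternative gave them no value. Cells with at least 3 G2 and mitosis genes were 82.98% of BrT1 and 29.7% of BrT2, and cells with at least 5 without thinning 97.9% and 54.1%. Leaving out a replicate was not possible with 1 mouse a side. No paired analysis was possible because cell numbers only count the cells of a chip and no test was made. Genes below 10 CPM in both tumors were not called, and they enter list sums and the medians over all members.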
